A study of Homo sapiens with 10 samples.

Results

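The change between 24 and 48 h of dibutyryl cAMP (dbcAMP) was followed in DBTRG-05MG, an established human glioblastoma line. The drug enters cells, mimics cyclic AMP and so switches on protein kinase A. Poly(A) RNA was sequenced from DBTRG-05MG and from a second glioblastoma line, U87, at 0, 6, 12, 24 and 48 h of 1 mM dbcAMP, with 1 library for each line and time. Of the 10 libraries, 2 make up the step, DBTRG-05MG at 48 h and DBTRG-05MG at 24 h. The 3 earlier DBTRG-05MG libraries give its course, and the U87 libraries at 48 and 24 h give the same step in another line. In U87, 189 genes were at least 2-fold higher and 408 lower at 24 h than at 12 h. The counts were 100 and 94 at 12 h over 6 h and 343 and 301 at 6 h over 0 h. At 48 h they were 622 and 581 over 24 h, and 333 and 729 over 12 h. Whether the U87 24 h library is itself unusual was not tested, and the U87 values are also given against 12 h. The 10 libraries hold none at 24 or 48 h without the drug, so exposure to the drug and time in culture cannot be told apart. Levels are FPKM, fragments per kilobase of transcript, scaled to library size. A change is the log2 ratio of FPKM + 1 at 48 h over FPKM + 1 at 24 h, taken for the 12424 of 20379 genes whose mean over the 5 DBTRG-05MG libraries was at least 1 FPKM. Rose and fell are used here for genes at least 2-fold apart on that scale. With 1 library at each time no difference was tested, and every count is a count of sizes with no replicate check.

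Cells that divide make the products for DNA copying in S phase and those for chromosome condensation, the spindle and cell separation in G2 and mitosis. Transcription of both sets is periodic. E2F factors drive the S phase genes through E2F sites, and the B-MYB-MuvB complex with FOXM1 drives the mitotic genes through a promoter element called the cell cycle genes homology region. In resting cells the DREAM complex represses both sets, the mitotic ones through the same element. NRF2 is a transcription factor that drives genes for iron storage, heme breakdown, quinone reduction and glutathione.

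The promoters of the 4 mitosis genes with the lowest ratios are shown first, because mitosis genes were the largest listed group among the genes that fell and these 4 share a promoter word. In the 160 bases before the RefSeq start site (build GRCh38.p14) the homology region, the words TTTGAA or TTTAAA on either strand, is in capitals. ASPM, a spindle pole protein, lies on the minus strand (chr1:197146670-197146829), PLK1, a kinase of mitotic entry and spindle assembly, on the plus strand (chr16:23678729-23678888), KIF20A, a kinesin of cytokinesis, on the plus strand (chr5:138178952-138179111), and CCNB2, a B-type cyclin, on the plus strand (chr15:59104986-59105145).
ASPM: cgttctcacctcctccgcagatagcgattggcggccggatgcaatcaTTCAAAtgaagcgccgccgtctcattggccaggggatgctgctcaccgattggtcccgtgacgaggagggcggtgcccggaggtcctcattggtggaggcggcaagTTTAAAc
PLK1: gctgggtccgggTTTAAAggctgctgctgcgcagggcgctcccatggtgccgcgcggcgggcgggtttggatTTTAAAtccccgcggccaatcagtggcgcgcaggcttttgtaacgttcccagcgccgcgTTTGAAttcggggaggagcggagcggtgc
KIF20A: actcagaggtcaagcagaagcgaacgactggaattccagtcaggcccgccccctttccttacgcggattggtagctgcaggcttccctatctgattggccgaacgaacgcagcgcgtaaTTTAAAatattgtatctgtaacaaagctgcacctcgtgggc
CCNB2: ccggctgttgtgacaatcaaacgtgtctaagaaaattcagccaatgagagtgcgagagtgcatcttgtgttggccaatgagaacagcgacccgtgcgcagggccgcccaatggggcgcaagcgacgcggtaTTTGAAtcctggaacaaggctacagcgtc
The word nearest the start site began 7 bases before it in ASPM, 29 in PLK1, 41 in KIF20A and 29 in CCNB2. CCAAT boxes stood upstream of that word in all 4, at 4 places in ASPM and 1 in PLK1.

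From the replication lists, 2 genes that hold an E2F word there are shown for comparison. They have the lowest ratios among such genes with a RefSeq window and a mean of at least 5 FPKM. The E2F words (TTTGGCGC, TTTCCCGC, TTTGCCGC or TTTCGCGC on either strand) are in capitals. CDT1, which licenses replication origins, and TYMS, which makes thymidylate, both lie on the plus strand (chr16:88803629-88803788 and chr18:657493-657652).
CDT1: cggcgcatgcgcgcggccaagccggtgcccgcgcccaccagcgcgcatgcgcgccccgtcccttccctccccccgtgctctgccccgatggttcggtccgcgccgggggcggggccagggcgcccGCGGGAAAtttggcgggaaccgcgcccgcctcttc
TYMS: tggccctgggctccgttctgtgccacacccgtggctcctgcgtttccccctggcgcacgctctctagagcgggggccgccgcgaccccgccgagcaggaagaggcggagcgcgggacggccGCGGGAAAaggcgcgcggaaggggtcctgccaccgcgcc
From the mitosis lists, 2 genes that did not reach 2-fold are shown with the homology region in capitals. SMC3, a cohesin subunit, lies on the plus strand (chr10:110567535-110567694) and CDC27, a subunit of the anaphase-promoting complex (APC/C), on the minus strand (chr17:47189296-47189455).
SMC3: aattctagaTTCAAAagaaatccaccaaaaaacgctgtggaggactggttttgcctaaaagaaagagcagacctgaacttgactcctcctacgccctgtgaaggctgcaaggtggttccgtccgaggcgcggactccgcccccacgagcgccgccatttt
CDC27: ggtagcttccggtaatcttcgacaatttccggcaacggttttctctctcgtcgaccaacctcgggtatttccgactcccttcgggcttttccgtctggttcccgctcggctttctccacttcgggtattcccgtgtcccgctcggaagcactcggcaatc
SMC3 held its 1 word 151 bases before the start site, and CDC27 held none before it and 1 that began at base 41 after it, within the 50 bases after the start that the counts of this word include. Both were chosen after their values were seen.

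Cell division genes were the largest listed group among the genes that fell in the late step. Of the 12424 genes, 241 (1.94%) were at least 2-fold lower and 91 (0.732%) at least 2-fold higher at 48 h than at 24 h. Lists of mitosis genes held 93 of the 241 lower genes, and lists of replication and S phase repair genes held 21, together 114 (47.3%). None of the 91 higher genes was on these lists. The median ratio of all genes was -0.03 on the log2 scale. The mitosis lists were written with their fall in this step already known, so their counts are descriptions.

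**Figure D1:**
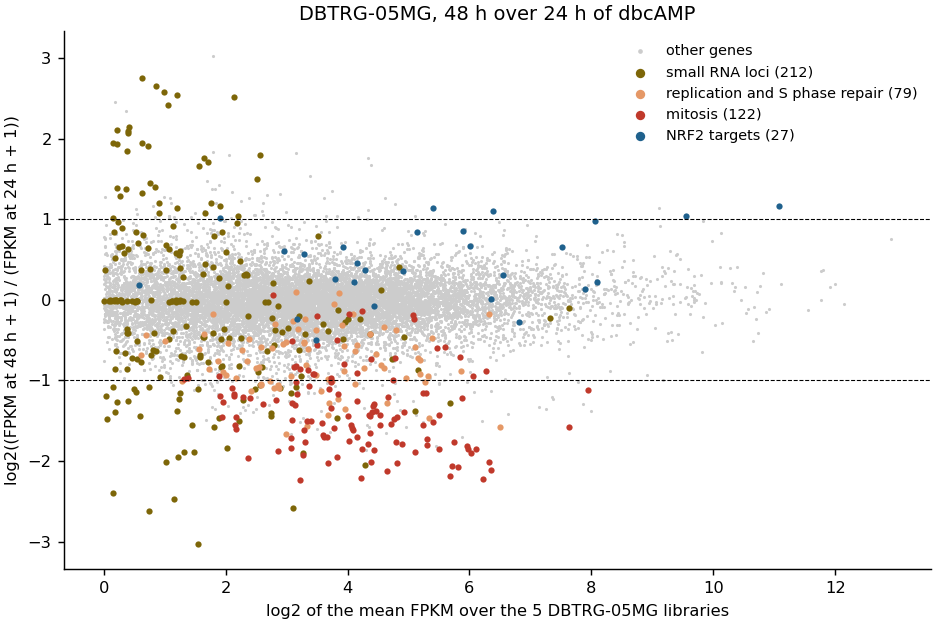
Log2 ratio of FPKM + 1 at 48 h over 24 h in DBTRG-05MG (vertical axis) against the log2 mean FPKM of the gene over the 5 DBTRG-05MG libraries (horizontal axis), 1 point for each gene, with dashed lines at 2-fold. Of 122 mitosis genes 93 lie below the lower line, at low and high levels alike, NRF2 targets at or above 0 for the most part, and small RNA loci scatter both ways.

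The kinases and cyclins that take the cell into mitosis fell together. Of 20, 15 were at least 2-fold lower (background 1.94%), with a median log2 ratio of -1.54. PLK1 had 94.9, 88.9, 89.9, 83.6 and 17.2 FPKM at 0, 6, 12, 24 and 48 h, and CCNB1, the main mitotic cyclin, 93.1, 93.2, 112, 91.7 and 20.5 FPKM. Both were near level over the first 4 times, and the 48 h library alone stood apart, with log2 ratios over 24 h of -2.22 and -2.11. CCNB2 had 12 FPKM at 48 h against 58.2 FPKM at 24 h, and CDK1, the kinase that B-type cyclins activate, 2.9 FPKM at 48 h against 14.1 FPKM at 24 h. PBK, a mitotic kinase, had 11.9 FPKM at 48 h against 52.8 FPKM at 24 h.

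The machinery of the spindle and the kinetochore fell too. Of 29 spindle motors and microtubule proteins 26 fell, with a median log2 ratio of -1.70, and of 32 kinetochore and centromere genes 22 fell, with a median of -1.20. ASPM had 9.71, 10.2, 13.3, 11.8 and 1.71 FPKM over the 5 times and the lowest ratio of any mitosis gene, -2.24. KIF20A had 3.13 FPKM at 48 h against 18.2 FPKM at 24 h, and CENPE, the kinesin that carries chromosomes to the spindle equator, 1.13 FPKM at 48 h against 7.26 FPKM at 24 h. CENPA, the histone H3 variant that marks centromeres, had 11.7, 12.8, 17.9, 18.2 and 3.69 FPKM over the 5 times. Its 24 h level was the highest of the 5 and its 48 h level the lowest. CENPF, a kinetochore protein of G2 and mitosis, had 5.75 FPKM at 48 h against 26.2 FPKM at 24 h. GTSE1, a microtubule-binding protein, had 6.01 FPKM at 48 h against 27.4 FPKM at 24 h. MIS12, part of the outer kinetochore, was the 1 member of the 122 mitosis genes with a ratio above 0, at 0.05.

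Most of the proteins that separate the chromosomes fell. Of 15 genes of the chromosomal passenger complex, securin and the APC/C, 10 fell. CDC20, which activates the APC/C in mitosis, had 94.2, 99.4, 109, 79.9 and 19.1 FPKM over the 5 times, and UBE2C, its ubiquitin-conjugating enzyme, 74.1, 88.9, 86.4, 59.7 and 15.2 FPKM. CDCA3 had 4.78 FPKM at 48 h against 24.1 FPKM at 24 h, and CDCA8, the passenger protein borealin, 4.29 FPKM at 48 h against 15.3 FPKM at 24 h. The constant parts of the APC/C had small ratios, -0.20 for ANAPC1, -0.14 for ANAPC7, -0.19 for CDC16 and -0.18 for CDC27. FZR1, another activator of the APC/C, had -0.23. These 5 are all of the list that did not reach 2-fold.

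Most of the chromosome proteins fell too. Of 16 genes for condensin, cohesin and the chromosome surface 10 fell, with a median log2 ratio of -1.32. SMC4 and SMC2, the condensin core, had ratios of -1.80 and -1.77, with SMC4 at 12.3 FPKM at 48 h against 45.3 FPKM at 24 h. The cohesin subunits SMC3, SMC1A, STAG1 and STAG2, which hold sister chromatids together and also fold interphase chromatin, had ratios of -0.73, -0.73, -0.52 and -0.49, and the condensin subunits NCAPD3 and NCAPH2 of -0.92 and -0.57. These 6 did not reach 2-fold, though all 6 were lower at 48 h. TOP2A, the topoisomerase that untangles chromosomes, had 57.6, 73.1, 97.6, 67.6 and 18 FPKM over the 5 times. MKI67, which coats mitotic chromosomes and is the usual marker of proliferation, had 79.9, 76, 69.4, 46.3 and 10.3 FPKM. MKI67 was lower at each later time and TOP2A was highest at 12 h, and both were lowest at 48 h.

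All 10 members of the cytokinesis list that pass the filter fell, with log2 ratios from -1.85 to -1.09. The list is not confined to genes of the contractile ring. ANLN, an actin-binding scaffold of the contractile ring, had 11.2 FPKM at 48 h against 40.2 FPKM at 24 h. DEPDC1 had 3.43 FPKM at 48 h against 12.6 FPKM at 24 h. FAM64A had 6.29 FPKM at 48 h against 25.3 FPKM at 24 h.

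**Figure D2:**
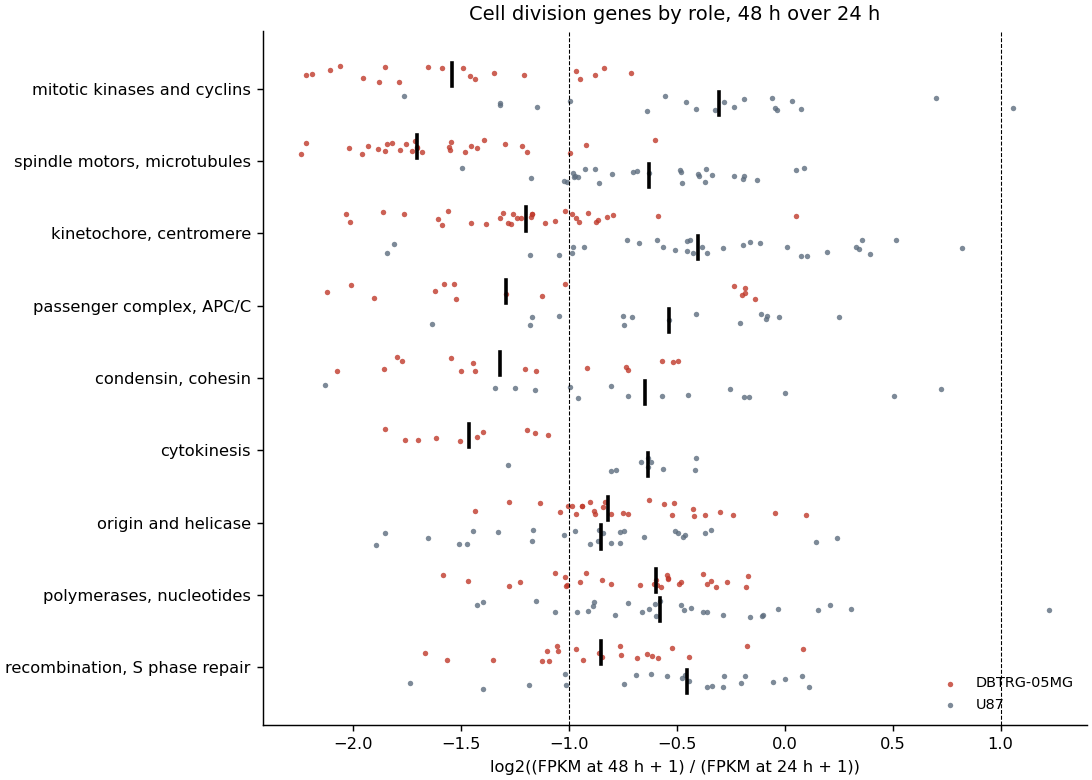
Log2 ratio of FPKM + 1 at 48 h over 24 h (horizontal axis) for the members of 9 cell division lists (rows), DBTRG-05MG in the upper band of each row and U87 in the lower, with black bars at the medians and dashed lines at 2-fold. The DBTRG-05MG medians of the 6 mitosis lists lie between -1.70 and -1.20, and those of the 3 replication lists between -0.85 and -0.60.

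Genes that copy DNA fell less in this step. Of 28 origin and helicase genes 5 fell (median log2 ratio -0.82), of 29 polymerase and nucleotide genes 8 (median -0.60) and of 22 genes of homologous recombination and S phase repair 8 (median -0.85). Over all genes 1.94% fell. RRM2, the ribonucleotide reductase subunit that limits the supply of nucleotides, had 94, 127, 159.9, 55 and 17.7 FPKM over the 5 times. TK1, which salvages thymidine, had 46.1, 48.2, 56.4, 38.1 and 13.2 FPKM, and TYMS 17.5, 18.9, 20.8, 10.6 and 3.94 FPKM. For RRM2 and TYMS the 24 h library was already below the 3 earlier ones, and the 48 h library was lower again. CDT1 had 3.39 FPKM at 48 h against 9.63 FPKM at 24 h, DBF4, the activator of the origin-firing kinase CDC7, 3.95 FPKM at 48 h against 12.4 FPKM at 24 h, and CHEK1, the replication checkpoint kinase, 2.7 FPKM at 48 h against 9.91 FPKM at 24 h. BRCA1 had 1.81 FPKM at 48 h against 5.13 FPKM at 24 h.

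For the mitosis genes the fall past 2-fold came in this step, while replication genes had passed it in equal number in the step before. Between 24 and 48 h, 93 of the 122 mitosis genes and 21 of the 79 replication and repair genes fell. Between 12 and 24 h, 0 of the 122 and 21 of the 79 were at least 2-fold lower, where 0.741% of all genes were. The median log2 ratio of the mitosis genes was -1.44 in the later step and -0.45 in the one before, and that of the replication genes was -0.76 in the later step and -0.73 in the one before. The summed level of the mitosis genes was 3680, 3669, 4193, 3336 and 1242 FPKM over the 5 times, and that of the replication genes 1530, 1590, 1706, 941 and 536 FPKM. Both steps use the 24 h library and they differ in length. Without that library, 48 h over 12 h, 111 of the 122 mitosis genes and 66 of the 79 replication genes fell (background 4.47%), with medians of -1.85 and -1.60.

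**Figure D3:**
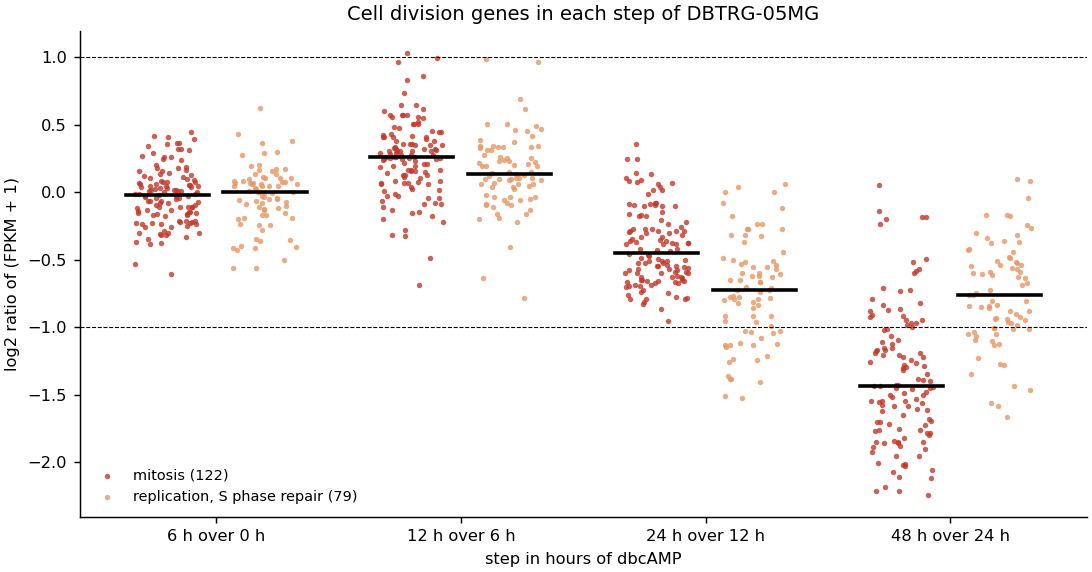
Log2 ratio of FPKM + 1 (vertical axis) for mitosis and replication genes in each step between consecutive times of DBTRG-05MG (horizontal axis), 1 point for each gene, with black bars at the medians and dashed lines at 2-fold. The replication genes have medians of -0.76 at 48 h over 24 h and -0.73 at 24 h over 12 h, while 93 of 122 mitosis genes are past 2-fold lower in the last step and 0 in the one before.

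The regulators of these genes changed to differing degrees. FOXM1 had 81.3, 80.3, 64.6, 53 and 15.5 FPKM over the 5 times and MYBL2, the gene of B-MYB, 52.3, 59.8, 45.3, 23.3 and 7.51 FPKM. These were the 2 of 20 cell cycle transcription factors that fell (background 1.94%). E2F1 stood at 8.06 FPKM at 48 h against 11.3 FPKM at 24 h, with a ratio of -0.44. E2F8, a repressor of E2F targets, and LIN9, a core subunit of MuvB, came nearest to 2-fold, at -0.96 and -0.85. Among G1 cyclins, their kinases and inhibitors 2 of 15 fell, CDKN3, a phosphatase of CDK1 and CDK2 whose transcript is itself periodic (7.58 FPKM at 48 h against 24.6 FPKM at 24 h), and CDKN2C, the CDK4 and CDK6 inhibitor p18 (6.05 FPKM at 48 h against 16.8 FPKM at 24 h). CDKN1A, which encodes the CDK inhibitor p21, had 293, 271, 253, 349.9 and 438 FPKM over the 5 times and did not reach 2-fold in the step, with a ratio of 0.32. In bulk RNA, fewer dividing cells and less of these transcripts in each cell cannot be told apart.

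Chromatin genes tied to proliferation fell as well. Of 30 genes for the nuclear lamina and chromatin maintenance, 6 fell (background 1.94%), with a median log2 ratio of -0.58. HMGB2, a chromatin protein of dividing cells, had 53.3, 58.8, 57, 39.5 and 10.5 FPKM over the 5 times and LMNB1, the B-type lamin, 30.7, 33.6, 37.2, 17.6 and 4.93 FPKM. H2AFX, the histone variant phosphorylated at DNA breaks, had 25.9 FPKM at 48 h against 70.6 FPKM at 24 h, and ASF1B, a histone chaperone of S phase, 21.8 FPKM at 48 h against 49.6 FPKM at 24 h. STMN1, of the spindle list, a protein that destabilises microtubules, had 11.8 FPKM at 48 h against 36.6 FPKM at 24 h.

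The promoter word shown above was common among the mitotic genes that fell. Of the 93, 78 had a window in the RefSeq table of 250 bases before to 50 bases after the start, and 59 of the 78 (75.6%) held the homology region, against 9 of 24 (37.5%) of the mitosis genes that did not reach 2-fold. It was in 7 of 68 (10.3%) windows of the replication and repair lists and in 10 of 30 (33.3%) of the cAMP and CREB targets. In 9580 windows of 11561 protein-coding genes that pass the filter it was in 1452 (15.2%), and in all 27305 RefSeq windows in 24.3%. Within the last 100 bases before the start, 47.4% of the mitotic genes that fell held it and 4.61% of the 9580. There it was in 12.5% of the mitosis genes that did not reach 2-fold and 23.3% of the cAMP and CREB targets. E2F words were in 28 of 68 (41.2%) replication windows, 7 of 78 (8.97%) of the mitotic genes that fell and 5.54% of the 9580. CCAAT was in 67.9% of the mitotic genes that fell, 62.5% of the mitosis genes that did not reach 2-fold, 57.4% of the replication windows and 37.0% of the 9580. The cAMP response element TGACGTCA was in 8.97% of the mitotic genes that fell and 3.38% of the 9580. A word in a window is a match of letters and not a bound site, and the base composition of the sets was not matched.

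Fewer genes rose, and iron and redox genes were the clearest group among them. Of 27 NRF2 targets 5 rose (background 0.732%) and 0 fell, with a median log2 ratio of 0.45. Against 12 h, 13 of the 27 rose by 48 h (background 3.07%). FTH1, the heavy chain of the iron store ferritin, had 1504, 1375, 1422, 1988 and 4440 FPKM over the 5 times. FTL, the light chain, had 588, 496, 476, 718 and 1470 FPKM. HMOX1, which breaks down heme, had 25.1, 23.1, 19.7, 44.8 and 99.7 FPKM, and NQO1, a quinone reductase, 52.2, 49.4, 62.8, 79.8 and 172 FPKM. In each of these 4 the 24 h library was above the 3 earlier ones and the 48 h library highest. The fifth was AKR1C2, an aldo-keto reductase, at 1.01 on the log2 scale. SQSTM1, the autophagy receptor p62, stood at 539 FPKM at 48 h against 273 FPKM at 24 h, just under 2-fold. The summed level of the list was 3436, 3236, 3366, 4512 and 8482 FPKM, of which FTH1 and FTL made up most at 48 h. The cystine carrier SLC7A11, also of this list, had a ratio of -0.24.

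**Figure D4:**
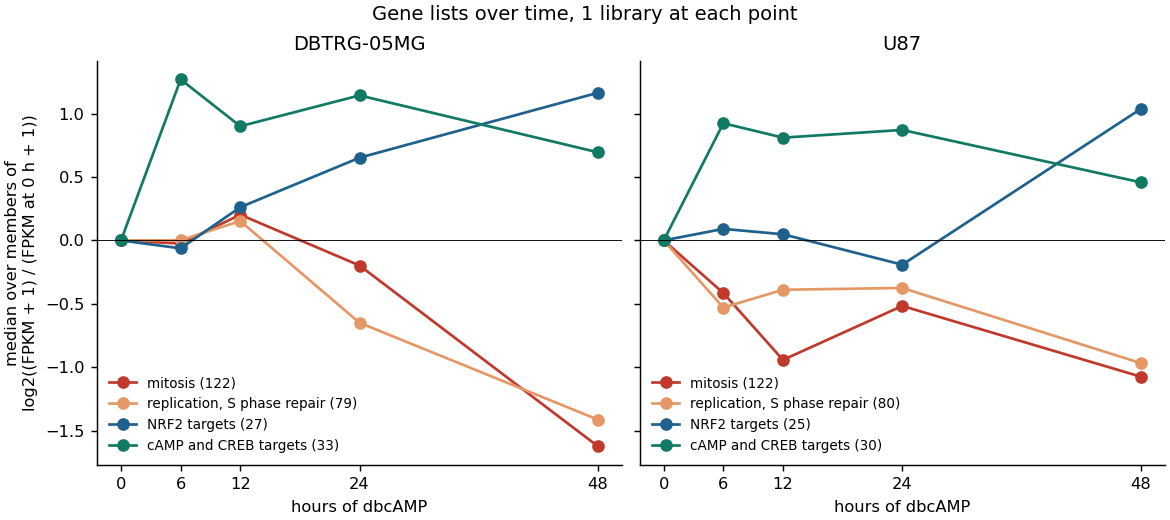
Median over the members of 4 gene lists of the log2 ratio of FPKM + 1 to that at 0 h (vertical axis) against hours of dbcAMP (horizontal axis), for DBTRG-05MG (left) and U87 (right), with 1 library at each point. In DBTRG-05MG the mitosis genes stand at -1.63 at 48 h and -0.20 at 24 h, the replication genes at -1.41 at 48 h and -0.65 at 24 h, and the NRF2 targets at 1.17 at 48 h and 0.65 at 24 h.

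Of 24 hypoxia-induced genes 3 rose (12.5%, background 0.732%). CA12, a carbonic anhydrase of the cell surface, had 18, 12.1, 9.42, 13.5 and 48 FPKM over the 5 times. ANGPTL4, a secreted inhibitor of lipoprotein lipase, had 6.99, 15.6, 4.26, 6.06 and 19.4 FPKM, and NDRG1, a stress-responsive protein, 27.9, 24.2, 13.4, 21.4 and 49.8 FPKM. All 3 were lowest at 12 h and highest at 48 h. The other 21 did not reach 2-fold. The median was 0.33, VEGFA had a ratio of 0.28, CA9 of 0.03 and PLOD2 of -0.27.

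Among genes that rose to high levels was SPARC, a collagen-binding matrix protein, with 329.8, 295, 366, 553 and 1217 FPKM over the 5 times. THBS1, a matrix glycoprotein, moved the other way, at 33.8 FPKM at 48 h against 84.5 FPKM at 24 h. HIST1H1C, the linker histone H1.2, was the 1 of 22 histone genes that rose, with 11.1, 12.1, 11.6, 16.1 and 53.5 FPKM, level over the first 3 times. MMP10 and MMP15, both metalloproteases, were the 2 of 24 in their list that rose (background 0.732%). MMP10 was at 19 FPKM at 48 h against 7.05 FPKM at 24 h. GDF15, a stress cytokine, stood at 359, 391, 391, 1153 and 2276 FPKM over the 5 times, with a ratio of 0.98, just under 2-fold.

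Several genes that were low at the start rose again in this step. PRND, the prion-like protein doppel, had 0.623, 0.359, 1.55, 17.6 and 46.6 FPKM over the 5 times. SLC18A1, a vesicular monoamine transporter, had 0.534, 1.82, 4.25, 15.7 and 39.1 FPKM, and RASL11A, a Ras-like protein, 2.41, 4.34, 6.5, 27.3 and 60.3 FPKM. SPON2, a secreted spondin, had 1.91, 1.77, 2.74, 6.96 and 18.6 FPKM. In all 4 the 24 h library was at least 2-fold above the 12 h one, and the 48 h library was again higher. SLC29A4, a monoamine transporter of the plasma membrane, had 9.4, 7.33, 3.82, 4.7 and 19.1 FPKM. TUBB4A, a beta-tubulin of neurons and oligodendrocytes, had 27.1, 13.9, 8.85, 20.8 and 51.5 FPKM. Both were lowest at 12 h. STMN2, a neuronal relative of STMN1, had 6 FPKM at 48 h against 2.06 FPKM at 24 h. Of 7 neuronal markers that pass the filter none reached 2-fold, and 5 had ratios above 0. SCG2, a secretogranin, had 93.2, 89.8, 141, 313 and 444 FPKM over the 5 times, and SNAP25, a synaptic fusion protein, was between 10.1 and 11.8 FPKM in the 5 libraries. The neuronal markers RBFOX3 and SYP were low in all 5, at most 0.0842 and 0.564 FPKM.

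**Figure D5:**
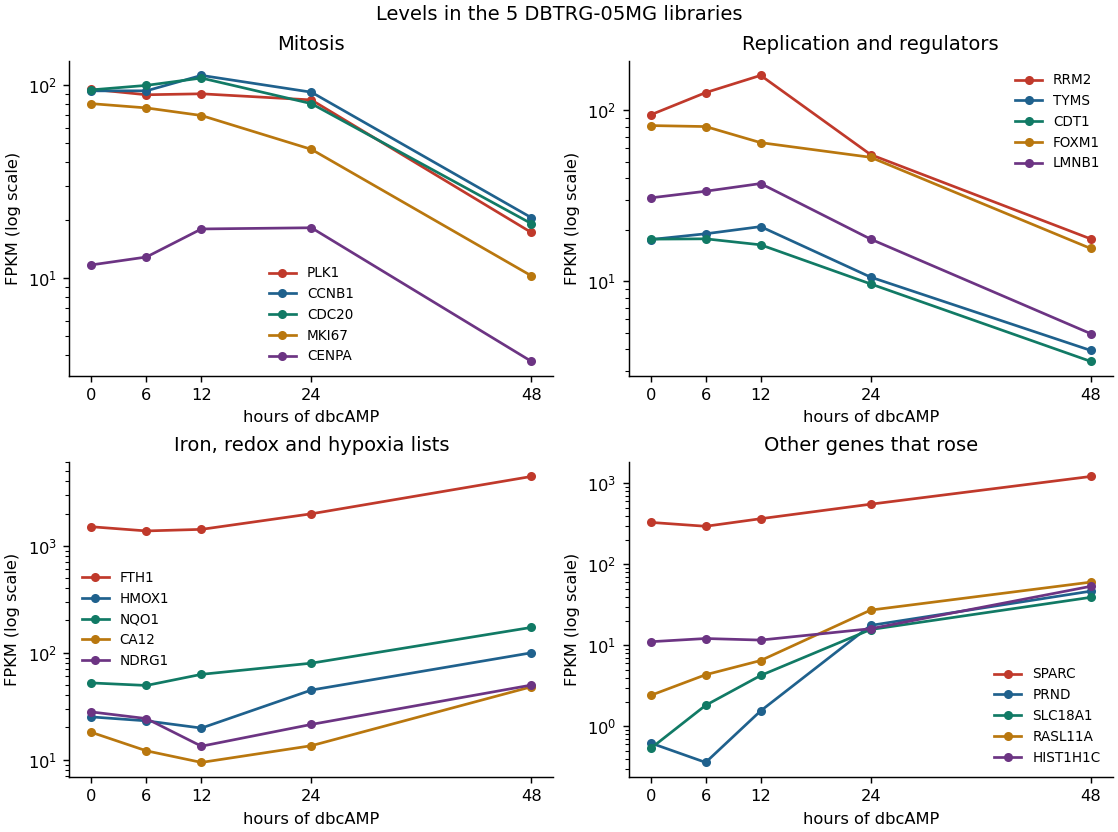
FPKM on a log scale (vertical axes) of 20 genes in the 5 DBTRG-05MG libraries against hours of dbcAMP (horizontal axes), by group. The mitosis genes stay within 2-fold of their 0 h level up to 24 h and are lowest at 48 h, RRM2 and LMNB1 are already lower at 24 h, and the lower panels hold genes that are highest at 48 h.

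Several early targets of cAMP fell. Of 33 cAMP and CREB targets, 0 rose and 4 fell between 24 and 48 h (backgrounds 0.732% and 1.94%), with a median log2 ratio of -0.25. By contrast, 20 of the 33 had been at least 2-fold higher at 6 h than at 0 h (background 1.2%). IL11, a cytokine that signals through gp130, had 8.82, 269.9, 262, 119 and 46.8 FPKM over the 5 times. DIO2, which activates thyroid hormone, had 2.74, 19.5, 13.4, 7.26 and 2.77 FPKM, and PDE3A, a phosphodiesterase, 0.726, 5.61, 12.6, 11.1 and 4.36 FPKM. NR4A1, an orphan nuclear receptor, had 1.36, 13, 10.1, 11.8 and 5.34 FPKM. Of the 4, DIO2 was back at its 0 h level at 48 h, and IL11, PDE3A and NR4A1 were still above theirs. PDE4B, another phosphodiesterase, stood at 11.7 FPKM at 48 h against 16.6 FPKM at 24 h and IL6 at 9.01 FPKM at 48 h against 15.2 FPKM at 24 h, and neither reached 2-fold. Of 27 components of the protein kinase A pathway, 0 rose and 0 fell.

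Most other lists moved little. Targets of YAP and SRF, the factors of cell stretch and actin, had 3 of 28 lower (10.7%, background 1.94%), with a median log2 ratio of -0.25. The 3 were TAGLN (2.58 FPKM at 48 h against 10.1 FPKM at 24 h), AMOTL2 (7.86 FPKM at 48 h against 18.9 FPKM at 24 h) and ANKRD1 (9.04 FPKM at 48 h against 19.4 FPKM at 24 h). ANKRD1 was already down to 29.6 FPKM at 12 h. The chaperone CRYAB, the 1 of 20 heat shock genes that fell, had 79.8, 389.7, 349.9, 326 and 125 FPKM over the 5 times. Of 42 genes of the ATF4 stress response only NUPR1 rose (background 0.732%), at 26.5 FPKM at 48 h against 12.4 FPKM at 24 h. Of 29 p53 targets, 0 passed 2-fold. Neither did any of 48 interferon-stimulated genes, 30 sterol genes, 24 glycolysis genes, 38 respiratory chain subunits or 39 lysosome and autophagy genes. The 59 cytosolic ribosomal proteins had 0 past 2-fold and a median of 0.06, with RPL10A at -0.93 and RPS27 at 0.92.

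In U87 more genes passed 2-fold in the same step and fewer of the mitosis genes did. There 581 of 11303 genes (5.14%) were at least 2-fold lower and 622 (5.5%) higher, and 21 of 122 mitosis genes fell with a median of -0.48. PLK1 and MKI67 were lower in both lines, with ratios of -1.76 and -2.13 in U87. CCNB1 was at 58.1 FPKM at 48 h and 55.0 FPKM at 24 h in U87, and CDK1 at 25.9 FPKM at 48 h against 11.9 FPKM at 24 h. The summed level of the U87 mitosis genes was 4660, 3530, 2614, 3862 and 2792 FPKM over the 5 times, lowest at 12 h. Their median level was instead lowest at 48 h, at 9.77 FPKM, against 12.95 FPKM at 12 h. For the replication genes the medians were -0.76 in DBTRG-05MG and -0.61 in U87, and of 25 NRF2 targets 15 rose in U87. Of the genes that pass in both lines, 213 fell in DBTRG-05MG and 548 in U87, and the 48 they share are 22.5% of the DBTRG-05MG list and 8.76% of the U87 list, with 5.13% of these genes lower in U87. For genes that rose the numbers were 49 and 550, with 17 shared (34.7% and 3.09%) and 5.15% of these genes higher in U87. Against 12 h instead, without the U87 24 h library, 333 genes rose in U87 (2.95%) and 729 fell (6.45%), and of 122 mitosis genes 4 fell and 3 rose, with a median of -0.12. In DBTRG-05MG 111 of the 122 fell over that span. Of the genes that pass in both lines, 489 fell between 12 and 48 h in DBTRG-05MG and 659 in U87, with 73 shared (14.9% and 11.1%). Those that rose were 250 and 287, with 58 shared (23.2% and 20.2%). Over that span 6.17% of these genes were lower and 2.69% higher in U87. None of these differences between lines has a replicate.

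The libraries were alike in depth. By the size of 1 fragment at low values, they ran from 100 to 116.8% of the DBTRG-05MG 0 h library, with the 48 h library at 106.8% and the 24 h library at 104.5%. The absolute scale, about 9.41 M fragments for the first library, is approximate (quartiles 5.14 and 10.1 over 178 genes), and it would give a 2 kb transcript at 5 FPKM about 94.1 fragments. The non-coding RNA BCYRN1 took 1.40% of summed FPKM at 48 h and 0.869% at 24 h. The glioma markers NES, VIM, CD44 and SOX2 were present in all 5 libraries. The glial markers GFAP, S100B and OLIG2 were at most 0.508, 0.497 and 0.462 FPKM. Of 5 immune markers, PTPRC, CD14 and CSF1R were at most 0.44 FPKM and AIF1 was listed at 0, while CD68, a lysosomal protein used as a macrophage marker, was at 113 FPKM at 48 h and 92.1 FPKM at 24 h. Of 4 epithelial markers, EPCAM and CDH1 were at most 0.43 FPKM, while the keratins KRT8 and KRT18 were at 51.2 and 387 FPKM at 48 h against 35.4 and 369 FPKM at 24 h. Of 4 endothelial markers, PECAM1, VWF and CDH5 were at most 0.11 FPKM, while KDR was at 1.60 FPKM at 0 h and 0.837 FPKM at 48 h. Of 5 fibroblast markers, COL3A1 and DCN were at most 0.168 FPKM, while COL1A1, COL1A2 and LUM reached 3.13, 5.35 and 1.33 FPKM. Their part in the results was not tested.

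Small RNA loci made up a large part of the remaining calls. Of 212 that pass the filter 34 were higher and 41 lower, against 57 and 200 of the other 12212 genes. MIR4292, with 1.58 FPKM at 48 h against 14.5 FPKM at 24 h, had the lowest ratio of all named genes, and SNORD44 stood at 8.66 FPKM at 48 h against 1.77 FPKM at 24 h. Poly(A) libraries do not measure mature small RNAs, and at these short loci FPKM rests on few fragments. Above a mean of 20 FPKM, 79 of 3604 genes were lower and 12 higher.

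At the edges of the rules, GINS1 (-1.004) lay just inside 2-fold and IDH2 (-0.998) just outside, and on the higher side ISYNA1 (1.01) lay inside and LRFN1 (0.99) outside. The filter on the mean kept CLEC7A and left out CSPG4, both at 1.00 FPKM after rounding. On GRCh38 (GENCODE release 29), PLK1 lies on chromosome 16 (23677656 to 23690367), CCNB1 on chromosome 5 (69167010 to 69178245), MKI67 on chromosome 10 (128096659 to 128126385), FTH1 on chromosome 11 (61959718 to 61967660) and HMOX1 on chromosome 22 (35380361 to 35394214).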

How the data were processed

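The deposited table holds 1 value for each of 20379 genes in 10 libraries. The labels do not name its unit. It was read as FPKM, as deposited by the authors, because low values step in whole fragments scaled by transcript length; this is an inference. HISAT, Bowtie2, RSEM and the human build hg38 are named in the submitters' processing notes, without versions. Dose and times are those of the sample labels, from which the series description departs in both. A value of 0.002 was read as 0. Spreadsheet dates stood in place of 25 symbols, and 19 of these passed the filter and were counted but not named.

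Log2 ratios used a pseudocount of 1 and a filter on the mean of 1 FPKM over the 5 DBTRG-05MG libraries (for U87, in its own 5). Such ratios understate the change of low genes. Replicates do not exist, so no test was made and no p-value is given. Counts use a 2-fold limit, and its background is the share of all genes past it. The 44 gene lists and the rule for named genes were written with earlier results of these data known. The rule took the 20 highest and 20 lowest ratios where the mean reached 5 FPKM, up to 4 members of each list and a fixed set of cell cycle, stress and cAMP genes. Genes outside it were chosen after their values were seen; they complete a count or stand as contrasts within a complex or list. The counting was checked on simulated data.

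Depth was estimated from the step of 1 fragment at low values, and that number limits the precision of low genes. Positions are from GENCODE release 29, in which 18339 symbols were found. Promoters are RefSeq windows of 250 bases before and 50 after a start (GRCh38.p14), 1 for each gene; 9580 of 11561 protein-coding genes that pass were matched by symbol or synonym. The motif search of the genes that rose is void, since under 80% had a window. Python 3.11.15, numpy 2.4.6, pandas 2.3.3 and matplotlib 3.10.9 were used. Alternatives were the pseudocount, the filter, the scaling, the fold limit and, added after the data were seen, 48 h over 12 h in both lines and counts without small RNA loci. Values of some single genes are not reported here.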

Additional observations from a re-analysis of the deposited data

Results flagged for a closer look

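In 5 genes named for this step the lines moved in opposite directions past 2-fold, and this difference was not tested. Among genes that pass in both lines, 11 of the 213 that fell in DBTRG-05MG rose in U87. Of the 49 that rose in DBTRG-05MG, 6 fell in U87. As background, 5.15% of all genes that pass in both lines rose in U87 and 5.13% fell. CDK1 had a log2 ratio of -1.95 in DBTRG-05MG and 1.06 in U87, a difference of -3.01. NDRG1 had 1.18 in DBTRG-05MG and -1.86 in U87, a difference of 3.05. ANGPTL4 had 1.53 in DBTRG-05MG and -1.07 in U87, a difference of 2.60. METTL7B, a methyltransferase-like protein, had 1.10 in DBTRG-05MG and -1.64 in U87, a difference of 2.74. The small RNA locus SNORD44 had 1.80 in DBTRG-05MG and -2.15 in U87, a difference of 3.96. All 5 values rest on the U87 24 h library, and its part in their size was not tested. From 12 to 48 h, CDK1 went from 9.44 to 25.9 FPKM in U87 and from 25.1 to 2.9 FPKM in DBTRG-05MG. NDRG1 went from 116.6 to 38 and from 13.4 to 49.8 FPKM in the same order. ANGPTL4 went from 15.3 to 2.72 and from 4.26 to 19.4 FPKM, and METTL7B from 11.2 to 2.79 and from 4.04 to 11.4 FPKM. So these genes moved in opposite directions without the 24 h libraries too. The same 48 h libraries enter both comparisons, so this is no independent check. SNORD44 was near level in DBTRG-05MG, at 8.3 FPKM at 12 h and 8.66 FPKM at 48 h.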

How the results depend on the processing

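No paired analysis was possible because each line and time has 1 library. No result reversed under any alternative listed here. The 91 higher genes became 416 at 1.5-fold and 13 at 4-fold, 162 with a pseudocount of 0.1 and 21 with 5, 162 with no filter and 30 with a mean of at least 5, 57 without small RNA loci, and 381 at 48 h over 12 h. The 241 lower genes became 726 at 1.5-fold and 19 at 4-fold, 404 with a pseudocount of 0.1 and 97 with 5, 368 when scaled to TPM, and 555 at 48 h over 12 h. The 114 cell division genes became 12 at 4-fold, 64 with a pseudocount of 5 and 177 at 48 h over 12 h. In U87 the 622 higher genes became 333 at 48 h over 12 h. Median centring and upper quartile scaling kept all 3 DBTRG-05MG counts within 1.5 times. Of 181 named genes, 26 no longer passed 2-fold with a pseudocount of 5 and 3 at 48 h over 12 h. Depth limits the low genes, where 1 fragment is a large share of the level.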

Other observations

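A few genes outside the lists, most of them known from innate defence, were higher at 48 h than at 24 h in DBTRG-05MG; they were chosen after their values were seen. S100A8, a calcium-binding protein of neutrophils and stressed epithelia, had 0.431, 0, 0.387, 3.09 and 13.5 FPKM at 0, 6, 12, 24 and 48 h, and its partner S100A9 had 0, 0, 0, 0.187 and 5.49 FPKM. Both passed the filter on the mean only through their 48 h values, so their rise is no separate evidence. LCN2, which binds bacterial siderophores, had 3.29, 2.27, 1.11, 2.75 and 9.12 FPKM. PLA2G2A, a secreted phospholipase, was listed at 0 at 24 h and had 7.16 FPKM at 48 h, but also 10.2 FPKM at 6 h between libraries listed at 0. PDK4, a kinase that restrains pyruvate dehydrogenase, had 12.6 FPKM at 48 h against 4.37 FPKM at 24 h. Of the immune markers, PTPRC was at most 0.0291 FPKM in the 5 libraries, while CD68 was at 113 FPKM at 48 h and 92.1 FPKM at 24 h.

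Of the 241 lower genes, 67 were on no list and were not small RNA loci. Among them, again chosen after their values were seen, were FAM83D, a spindle protein, with a log2 ratio of -1.86, SHCBP1 with -1.60, KPNA2, an importin, with -1.36, and POLQ, a polymerase of end joining, with -1.37.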
